A study of Mus musculus with 53 samples.

Results

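The enzymes that place, copy and remove DNA methylation were followed through 5 populations of mouse embryonic stem cells, through 45 single cells, and on a map of Tbx3 binding sites. The genes were chosen by name: the DNA methyltransferases Dnmt1, Dnmt3a and Dnmt3b, their partners Dnmt3l and Uhrf1, and the dioxygenases Tet1, Tet2 and Tet3. All 8 were listed among the 11647 genes of the bulk RNA table, and all 8 among the 23235 genes of the single-cell table.

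Dnmt3a and Dnmt3b set methyl groups on cytosines of unmethylated CpG sites, and Dnmt3l, which has no catalytic activity of its own, stimulates both. After each round of replication Uhrf1 binds the hemimethylated CpG sites and recruits Dnmt1, which copies the mark onto the new strand. The Tet enzymes oxidise methylcytosine to hydroxymethylcytosine and beyond, from which the unmodified base can be regained by replication or by base excision repair. Embryonic stem cells are known for expressing Tet1 and Tet2 rather than Tet3, and Dppa3 is known to keep Uhrf1 from chromatin and to shield methylcytosine in the early embryo.

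The study asked how the T-box transcription factor Tbx3, through Dppa3, bears on the exit of stem cells from pluripotency. R1 cells, a mouse embryonic stem cell line, were grown without feeder cells in medium with serum and LIF. An allele set held cells with both Tbx3 alleles intact (+/+), heterozygous cells (+/N) and null cells (N/N), and a hairpin set held wild-type cells with a hairpin against luciferase (shLuc) or against Tbx3 (shTbx3). With 1 library for each of these 5 populations, the differences have no replicate check and no p-value is given. The labels do not say whether a line is 1 clone. Tbx3 sites came from N/N cells that carried the biotin ligase BirA and Flag-Biotin-Tbx3, with N/N cells carrying BirA alone as the negative control. With 1 sample of each, the sites have no replicate check, and they are those of the tagged protein. The single cells, and 1 pool, were R1 cells sorted as positive for the surface antigen SSEA1 and negative for the dead-cell stain DAPI, and they belong to no Tbx3 group.

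Several facts of the libraries bear on what follows. Tbx3 read 44.4 FPKM (fragments scaled to transcript length and to the library's total) in +/+, 22.5 in +/N, 15.1 in N/N, 13.8 in shLuc and 5.09 in shTbx3, so it was reduced from +/+ but present in the library labelled null, at or above 63.4% of listed genes there. What the targeted allele lacks of the gene is not stated in the labels. The summed level of 7 stem cell markers ran from 2382 to 3838 FPKM. Other marker lists moved with the populations: 5 primitive endoderm markers summed to 34.2 FPKM in +/+ and 5.90 in N/N, 5 fibroblast markers to 39.2 and 95.7, 3 primitive streak markers to 2.18 in shLuc and 65.6 in shTbx3, 4 markers of antigen-presenting or B cells to 75.6 and 6.08, and 3 epiblast markers to 40.5 and 27.6. In +/N the endoderm sum was 11.0 FPKM and the fibroblast sum 87.9. The fibroblast sum was also higher in shTbx3 than in shLuc (15.3 against 6.75 FPKM). Within that list Thy1 went the other way, at 11.1 FPKM in +/+, 10.0 in N/N, 5.81 in shLuc and 2.85 in shTbx3. Of the epiblast markers only Otx2 was lower in shTbx3 than in shLuc (11.2 against 29.4 FPKM). Pou3f1 (11.8 against 7.7) and Fgf5 (4.62 against 3.41) were higher. The part of these marker lists in the differences of the methylation genes was not tested. In the allele libraries small RNA genes took 19.6% to 22.7% of all FPKM, and in the hairpin libraries 5.42% to 7.24%. Reads were 26 or 100 bp long, and the labels do not tell which library had which. Values from both sets are therefore set side by side and not subtracted. In bulk RNA, fewer cells of a type and less RNA per cell cannot be told apart.

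Tbx3 sites lay near all 3 Tet genes. The deposited list held 3078 sites on mouse genome build mm9, with the authors' peak scores from 50.01 to 791.25 and a median of 76.65. Of the 8 genes 4 had a site within 20 kb of the gene start: Tet1, Tet2, Tet3 and Dnmt1. Among 22380 protein-coding genes 9.59% did. Tet1 had 4 sites in that window, and 0.0715% of coding genes had 4 or more. Dnmt3b, Dnmt3l and Uhrf1 had no site within 50 kb, and their nearest sites were 480948 bp, 348704 bp and 228069 bp away. Only 18.4% of coding genes had a site within 50 kb, so having none was the common case. At the edge of the window, a Tet3 site at 19456 bp and a Tet2 site at 19248 bp lay just inside, and a Tet2 site at 25101 bp and a Dnmt1 site at 26223 bp just outside. That Dnmt1 site lay 19208 bp from another Dnmt1 start, given by RefSeq at position 20764332.

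Tet1, the most abundant Tet transcript of these libraries, occupies chr10:62267318-62361866 on the minus strand, and all 4 of its sites were intronic. Those nearest the start scored 229.58 (chr10:62359507-62360131, 1735 bp away) and 215.37 (chr10:62358130-62358717, 3149 bp away), ranks 207 and 234 of 3078. A weaker site scored 62.15 at 5856 bp (chr10:62355446-62356010). The site farthest inside the gene scored 164.09 (chr10:62346599-62347137, 14729 bp away), and it lay 3837 bp upstream of the start of the shorter transcript Tet1-201. From the Tet1 start of RefSeq, at position 62350072, the order turns: the last of these sites lay 2935 bp inside that transcript, and the other 3 lay 5374 to 9435 bp upstream of it. Motifs were searched on both strands, among them the T-box core GGTGTGA, the octamer ATTTGCAT of the Pou5f1 family, and TCAAGGTCA, the element of the Esrrb family. The central 200 bases of the Tet1 sites that held one are shown to place these letters, on the plus strand of mm9 from the reference genome, with matches on either strand in capitals.
Tet1, 1735 bp from the start, chr10:62359720-62359919: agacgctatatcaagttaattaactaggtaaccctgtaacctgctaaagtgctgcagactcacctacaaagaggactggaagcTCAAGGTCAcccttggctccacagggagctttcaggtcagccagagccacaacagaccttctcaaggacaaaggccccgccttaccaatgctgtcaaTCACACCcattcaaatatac
Tet1, 5856 bp from the start, chr10:62355629-62355828: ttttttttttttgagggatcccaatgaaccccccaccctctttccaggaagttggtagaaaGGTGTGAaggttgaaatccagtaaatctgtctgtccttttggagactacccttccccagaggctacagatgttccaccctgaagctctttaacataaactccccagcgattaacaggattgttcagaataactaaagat
Tet1, 14729 bp from the start, chr10:62346769-62346968: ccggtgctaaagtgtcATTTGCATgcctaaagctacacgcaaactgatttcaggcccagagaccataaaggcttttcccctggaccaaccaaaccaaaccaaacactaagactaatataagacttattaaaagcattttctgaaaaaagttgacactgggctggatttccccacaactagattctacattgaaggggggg

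Tet3, the Tet gene with the lowest level in these cells, had the site with the highest score of the family. It scored 357.63, rank 66 of 3078, and lay in an intron at chr6:83371655-83372216, inside a gene that spans chr6:83312367-83391672 on the minus strand. Its centre, shown because it holds the T-box core, reads as follows on the plus strand of mm9, with the match in capitals.
Tet3, 19456 bp from the start, chr6:83371836-83372035: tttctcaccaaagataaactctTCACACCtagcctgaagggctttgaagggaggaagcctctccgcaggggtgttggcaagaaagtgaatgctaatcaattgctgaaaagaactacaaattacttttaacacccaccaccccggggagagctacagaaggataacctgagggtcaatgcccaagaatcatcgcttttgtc

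The T-box core GGTGTGA was found in the central 200 bases of 7.63% of all sites, against 2.94% of 6154 windows of the same width 2 kb to either side. The longer AGGTGTGA, which overlaps it, was in 3.09% and 1.09%. ATTTGCAT was in 5.23% and 1.25%, and TCAAGGTCA in 1.95% and 0.601%. Of the other motifs searched, the short T-box GTGTGA, part of the core, was in 16.4% and 12.4%, GGGTGTGG of the Klf family in 5.56% and 1.67%, and the E-box CACGTG in 3.18% and 2.83%. The Tet1 site at 3149 bp held none of these 7 in its central window. Tet2 (chr3:133126643-133207354, minus strand) had intronic sites scoring 207.04 at 9881 bp (chr3:133196938-133197473) and 68.72 at 19248 bp (chr3:133187580-133188106). Neither held any of these motifs in its central window, which says only that these letters are not in that window.

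The Dnmt1 site was of another kind: it lay over the gene start. Dnmt1 spans chr9:20711650-20757317 on the minus strand, and the site, chr9:20756731-20757650, scored 137.76 (rank 580) and held 60 CpG dinucleotides at a GC content of 65.2%. RefSeq also gives a Dnmt1 start farther upstream, at position 20764332, and the stretch shown lies downstream of that one. The stretch upstream of the gene start is shown with each CpG, the letters these enzymes act on, in capitals.
Dnmt1, upstream of the start, chr9:20757425-20757624: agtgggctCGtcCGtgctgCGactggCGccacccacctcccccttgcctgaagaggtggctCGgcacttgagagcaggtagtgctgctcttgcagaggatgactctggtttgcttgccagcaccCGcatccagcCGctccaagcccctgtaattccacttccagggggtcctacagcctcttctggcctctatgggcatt
This stretch held 7 CpG at 61.5% GC. The central 200 bases of the site, which are not shown, held 20 CpG at 67.5% GC; 7.76% of all sites held as many in their central 200 bases, where the median was 3.

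Dnmt3a showed how the choice of start matters. Its gene start, at the long transcript, was 66735 bp from the nearest site. A site scoring 69.61 (chr12:3889650-3890336, intronic) lay 1392 bp from the start of the coding transcript Dnmt3a-005 and 1408 bp from that of Dnmt3a-201, which encode 689 codons against 908 in the long form. That shorter form, Dnmt3a2, is known as the main Dnmt3a protein of embryonic stem cells. Counted from any coding transcript start, 5 of the 8 genes had a site within 20 kb, against 10.4% of coding genes.

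**Figure D1:**
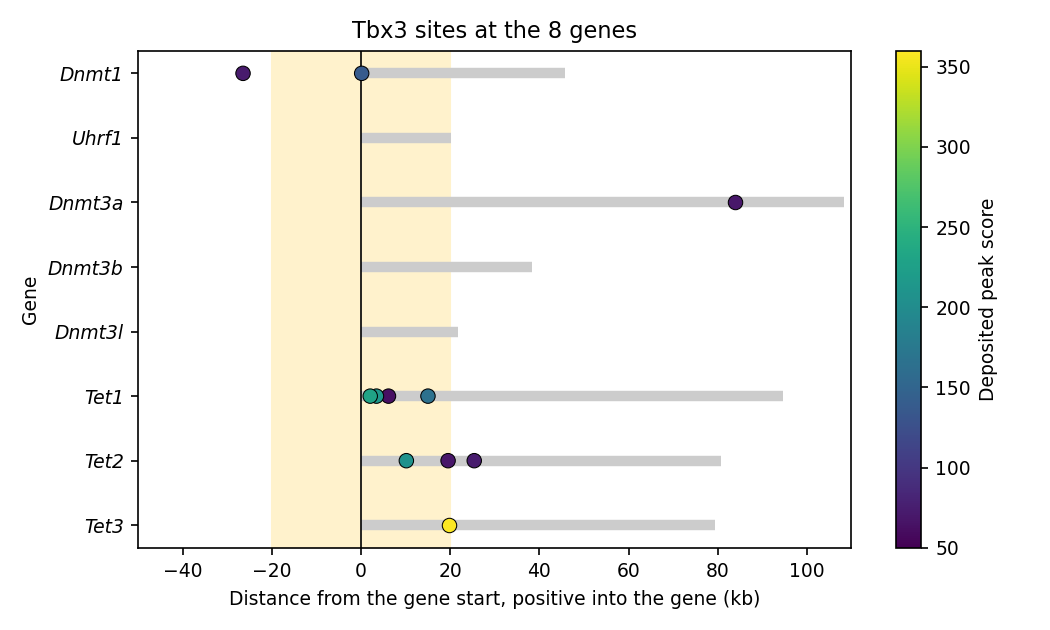
Position of Tbx3 sites relative to the start of each gene (horizontal axis, kb, downstream to the right) and their deposited peak score (colour of the point), with the gene body in grey and the window of 20 kb to either side of the start shaded. Tet1 has 4 sites within 20 kb, Tet2 has 2, Tet3 and Dnmt1 have 1 each, and Dnmt3a, Dnmt3b, Dnmt3l and Uhrf1 have none in that window.

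In bulk RNA the de novo cofactor Dnmt3l was the highest of the family in every library. It stood at 164 FPKM in +/+, 154 in +/N, 156 in N/N, 169.6 in shLuc and 179 in shTbx3, at or above 97.2% to 97.8% of listed genes. The maintenance pair came next in the allele set and in shTbx3, while in shLuc Dnmt3b lay between them. Uhrf1 stood at 94.3, 80.1, 83.7, 72.7 and 96.6 FPKM in the same order of libraries, and Dnmt1 at 73.4, 62.8, 69.1, 62.5 and 86.9. The ratio of Uhrf1 to Dnmt1 stayed between 1.11 and 1.29.

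The catalytic de novo enzymes stood below both Uhrf1 and Dnmt1, except that Dnmt3b was above Dnmt1 in shLuc (68.3 against 62.5 FPKM). They differed in how far apart they were. Dnmt3b read 22.4 FPKM in +/+, 27.02 in +/N, 32.1 in N/N, 68.3 in shLuc and 81.4 in shTbx3. Dnmt3a read 16.6, 15.2, 14.996, 15.2 and 10.3. Dnmt3b was therefore above Dnmt3a in every library, by a ratio of 1.35 in +/+, 1.78 in +/N, 2.14 in N/N, 4.49 in shLuc and 7.89 in shTbx3. The Dnmt3b level separated the allele set from the hairpin set more than any step within a set, a gap that cannot be told apart from how the sets were made and read.

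Of the Tet genes, Tet1 was highest, Tet2 next and Tet3 close to the limit of the table, in all 5 libraries. Tet1 read 31.1, 34.8, 29.99, 33.6 and 24.03 FPKM, and Tet2 read 17.9, 15.3, 13.5, 18.8 and 12.8. Tet3 read 1.56, 1.18, 0.954, 0.933 and 0.882, at or above only 3.40% to 7.49% of listed genes. Tet1 made up 61.6% to 67.8% of the summed Tet level and Tet3 1.75% to 3.08%. The summed level of the 3 catalytic methyltransferases was 2.23 times that of the Tet genes in +/+, 2.05 times in +/N, 2.62 times in N/N, 2.74 times in shLuc and 4.74 times in shTbx3. With 1 library a population, neighbours in this order such as Dnmt3a and Tet2 have no spread to be separated by.

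**Figure D2:**
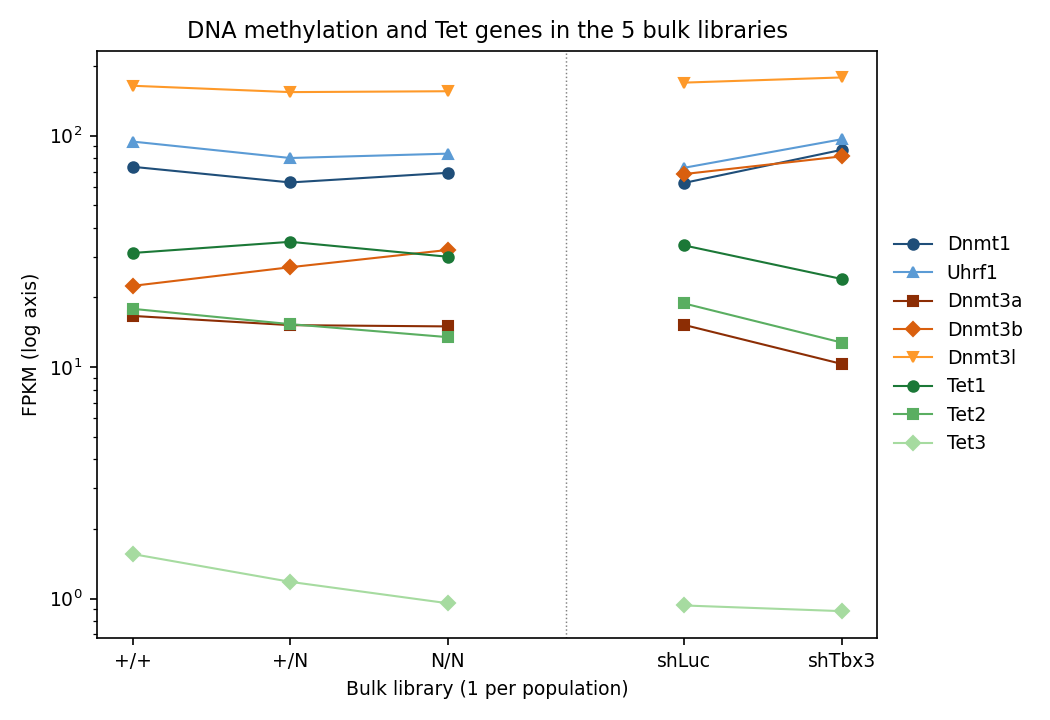
Level of each gene (FPKM, log axis) in the 5 bulk libraries, 1 point a library, with lines joining the libraries of a set only to guide the eye. Dnmt3l sits highest at 154 to 179 FPKM and Tet3 lowest at 0.882 to 1.56, and Dnmt3b lies higher in both hairpin libraries than in the allele libraries.

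The first comparison asked what the targeting of both Tbx3 alleles goes with, in a library where Tbx3 RNA was reduced but still present. None of the 8 genes differed by 2-fold between N/N and +/+, nor by 1.5-fold, on the scale log2(FPKM + 1), which understates differences of low genes; 3.28% of 11478 genes passed 2-fold and 11.9% passed 1.5-fold. Dnmt3b was the highest of them relative to +/+, by 0.50 (1.41-fold), and 16.6% of genes differed as much. Tet3 was lower by 0.39 and Tet2 by 0.38, differences as large as those of 25.3% and 25.8% of genes. Tet3, at 1.56 and 0.954 FPKM, depended on the scale: with 0.1 added in place of 1 it stood at -0.65, past 1.5-fold. Dnmt1 (-0.09), Dnmt3a (-0.14), Dnmt3l (-0.08), Uhrf1 (-0.17) and Tet1 (-0.05) lay closer to 0. The median over the 8 genes was -0.11, and over all genes tested -0.03. Dppa3, the gene in the study's title, read 5.32, 8.95 and 24.7 FPKM in the +/+, +/N and N/N libraries, and 29.1 and 51.3 in shLuc and shTbx3.

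The heterozygous library gave smaller steps in part of the family. No member passed 2-fold or 1.5-fold between +/N and +/+, where 1.91% and 7.36% of 11459 genes did, nor between N/N and +/N, where 0.625% and 1.78% of 11362 genes did. Against +/+, which serves as control for both lines, the +/N values were 0.26 for Dnmt3b, 0.16 for Tet1, -0.12 for Dnmt3a, -0.21 for Tet2, -0.22 for Dnmt1 and -0.23 for both Uhrf1 and Tet3. The median gene at 5 FPKM or more stood at -0.12 in that comparison. Relative to it the values were 0.37 for Dnmt3b, 0.27 for Tet1, -0.01 for Dnmt3a, -0.09 for Tet2, -0.10 for Dnmt1, -0.12 for Uhrf1 and -0.11 for Tet3, so most were nearer to 0. Between N/N and +/N, where that median stood at 0.09, Dnmt3b was at 0.24 and Tet1 at -0.21, and relative to it at 0.15 and -0.30. Dnmt3b was ordered +/+ below +/N below N/N, as were 25.4% of 11493 genes, and Dnmt3a, Tet2 and Tet3 were ordered the other way, as were 22.5%. The median over the 8 genes was -0.17 for +/N against +/+ (-0.10 over all genes) and -0.002 for N/N against +/N (0.07 over all genes).

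The hairpin set asked the same of a knockdown. Again 0 genes of the 7 past the 1 FPKM filter differed by 2-fold or by 1.5-fold, where 3.8% and 16.5% of 11342 genes did; Tet3 was under 1 FPKM in both libraries. The maintenance pair was higher in shTbx3, Dnmt1 by 0.47 and Uhrf1 by 0.40, and differences as large were seen in 25.8% and 32.5% of genes. Tet2 (-0.53), Dnmt3a (-0.52) and Tet1 (-0.47) were lower, and Dnmt3b (0.25) and Dnmt3l (0.07) stood closer to 0. On the FPKM scale Dnmt1 was 39.0% higher and the change was -32.2% for both Dnmt3a and Tet2.

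Scaling mattered more here, since the median gene at 5 FPKM or more was 0.16 higher in shTbx3. Relative to that median, Dnmt3a stood at -0.68, Tet1 at -0.62 and Tet2 at -0.69, so that 3 of the 7 genes passed 1.5-fold, as did 13.9% of all genes. Dnmt1 then stood at 0.31, Uhrf1 at 0.25, Dnmt3b at 0.09 and Dnmt3l at -0.08, a change of sign for Dnmt3l. That median stood at -0.03 for N/N against +/+. The median over the 7 genes was 0.07, and over all genes 0.14.

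N/N with +/+ and shTbx3 with shLuc share no library, and their directions can be set side by side. Dnmt3b was higher with less Tbx3 in both, as were 28.1% of 11182 genes. Dnmt3a, Tet1 and Tet2 were lower in both, as were 17.3% of genes. Dnmt1 and Uhrf1 stood below +/+ in N/N but above shLuc in shTbx3, and that opposition was not tested. Of 14 cell cycle genes, in whose company Dnmt1 and Uhrf1 are known to peak, none passed 2-fold either way in either comparison. Their median was -0.11 in N/N and 0.18 in shTbx3, against -0.03 and 0.14 over all genes. In shTbx3 10 of 14 stood above 0, as did 7318 of 11342 genes. Whether cycling bears on the pair was not tested.

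**Figure D3:**
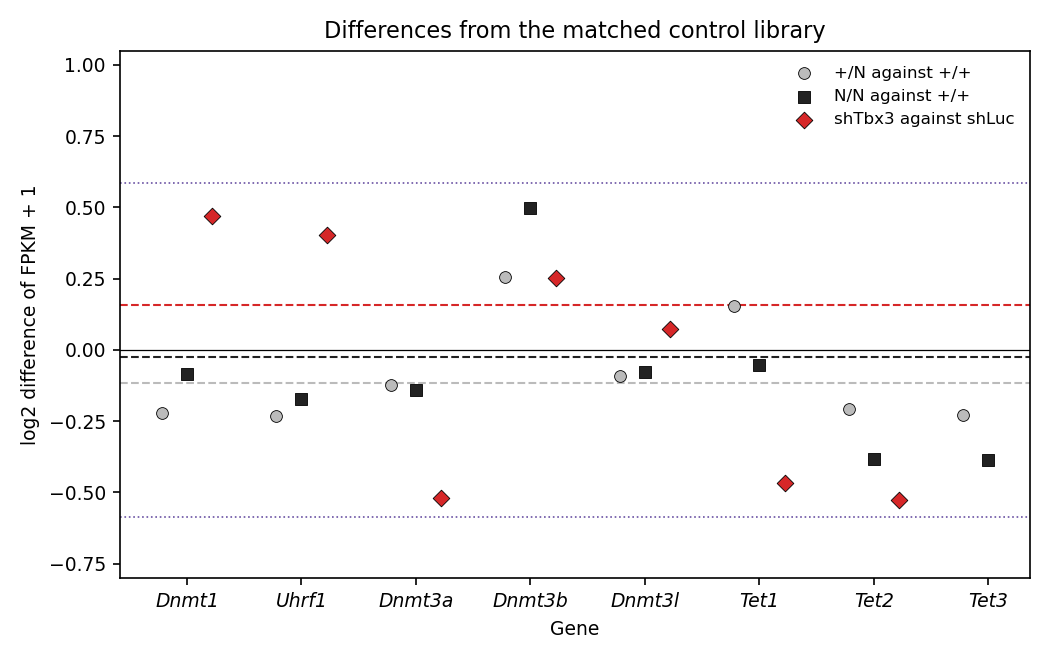
Difference in log2(FPKM + 1) for each gene (vertical axis) in 3 comparisons, N/N and +/N against the shared +/+ library and shTbx3 against shLuc, with dotted lines at 1.5-fold and dashed lines, in the colour of each comparison, at the median gene above 5 FPKM. All plotted values lie between the lines, from -0.53 for Tet2 in shTbx3 to 0.50 for Dnmt3b in N/N.

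The genes that work beside these enzymes were counted by list. Of 29 cofactors and readers of methylation 27 passed the filter and 0 differed by 2-fold in N/N or in shTbx3, with medians of -0.12 and 0.28. Over all genes, 157 of 11478 were 2-fold higher and 220 lower in N/N, with a median of -0.03, and 319 of 11342 were 2-fold higher and 112 lower in shTbx3, with a median of 0.14. Pcna, the replication clamp to which Dnmt1 binds, read 111.5 FPKM in +/+, 73.6 in N/N, 97.9 in shLuc and 162.0 in shTbx3. Kdm2b, a CXXC-domain protein that recruits a Polycomb complex to unmethylated CpG islands, stood at -0.65 in N/N, and Zfp57, which keeps methylation at imprinted loci, at -0.63. In shTbx3, Pcna (0.72), Cxxc1 (0.62), Cxxc5 (0.60) and Trim28 (0.59) stood highest of the list.

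Of 19 genes of active demethylation and repair 17 passed the filter. In N/N 1 was 2-fold lower, Apobec2 (-1.05, from 5.02 to 1.90 FPKM), with Apex1 at -0.96, Neil2 at 0.94 and Gadd45g at 0.88, and the median was 0.08. In shTbx3 1 was 2-fold higher, Gadd45b (1.21, from 18.5 to 44.1 FPKM), and Gadd45a was just short of it (0.998, from 31.5 to 63.9 FPKM). Neil2 stood at -0.60 and Apobec1 at -0.56, and the median was -0.01. The methyl donor pathway, which makes S-adenosylmethionine, had 0 of 13 genes past 2-fold in either comparison, with medians of -0.01 and 0.08. Mat2a, the S-adenosylmethionine synthase, was at -0.71 in N/N. Tdh, the threonine dehydrogenase that feeds one-carbon units in mouse stem cells, was at 0.86 in shTbx3. Of 15 genes that make or use 2-oxoglutarate, the cosubstrate of the Tet enzymes, 0 passed 2-fold in either, with medians of 0.21 and 0.11.

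Genes of the germline programme known to be silenced by promoter methylation were counted in the same way. In N/N 1 of 14 genes past the filter was 2-fold higher, Sycp3 (1.00, from 4.84 to 10.7 FPKM), and 0 were lower, with a median of 0.07. In shTbx3 3 of 15 were 2-fold lower, Sycp3 (-1.39), Mael (-1.27) and Hormad1 (-1.13), 2 genes stood above 0 and 13 below, and the median was -0.41. Of all 11342 genes 112 were 2-fold lower and 4024 stood below 0. Whether the list differs between the allele and hairpin comparisons was not tested. Sycp3, a component of the synaptonemal complex, was at 22.5 FPKM in shLuc and 7.96 in shTbx3. In +/N against +/+, and in N/N against +/N, no gene of these 5 lists or of the cell cycle list passed 2-fold; all 15 genes of the 2-oxoglutarate list stood above 0 in N/N against +/N, as did 7735 of 11362 genes and 12 of 14 cell cycle genes. The list's median was 0.26 there, and that of all genes 0.07. DNA methylation itself was not analysed here.

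Sites within 20 kb of a gene start, held by 9.59% of coding genes, were counted for the same lists. The cofactor list had 8 of 29 genes with such a site (Cxxc1, Cxxc5, Ehmt1, Mbd3, Trim28, Uhrf2, Usp7 and Zfp57), and the demethylation list 5 of 19 (Apex1, Gadd45a, Gadd45g, Parp1 and Tdg). The methyl donor list had 3 of 14 (Amt, Gldc and Tdh), and the 2-oxoglutarate list 5 of 15 (Glud1, Got1, Got2, Idh2 and Psat1). The germline list had 2 of 20 (Dpep3 and Zcwpw1) and the cell cycle list 2 of 14 (Ccna2 and Mcm2).

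In the single cells the order of the family was another one. Uhrf1 reached 1 FPKM in all 45 cells (95% exact Clopper-Pearson interval 92.1% to 100%), Tet2 in 44 (97.8%, 88.2% to 99.9%) and Tet1 in 37 (82.2%, 67.9% to 92.0%). Dnmt3l did so in 22 cells (48.9%, 33.7% to 64.2%), Dnmt3a in 20 (44.4%, 29.6% to 60.0%) and Dnmt3b in 19 (42.2%, 27.7% to 57.8%). Dnmt1 was at 1 FPKM in 9 cells (20%, 9.58% to 34.6%) and Tet3 in 1 (2.22%, 0.0562% to 11.8%). These intervals cover counting error only, and the cells come from 1 sort, so they are not replicates.

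The levels were spread widely from cell to cell. Uhrf1 ran from 1.34 FPKM to a median of 332 and a highest cell of 795. Tet2 ran from 0.139 through 104 to 879, and Tet1 from 0.0153 through 34.0 to 342. For the other genes the median cell lay under 1 FPKM while the highest cells were far above it: 297 FPKM for Dnmt1 (median 0.262), 74.98 for Dnmt3a (0.313), 163 for Dnmt3b (0.356) and 845 for Dnmt3l (0.906). Tet3 was at 0 in 43 cells and at 77.1 FPKM in 1, which held 99.95% of its summed level.

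The de novo genes were high in some cells and near 0 in others. Low detection was common in these libraries. Of 8564 genes at 5 FPKM or more in the pool, 34.3% reached 1 FPKM in at least 25% of cells. Whether the split of the de novo genes reflects differences between cells or missed detection was not tested. Dnmt3a was at 5 FPKM or more in 16 cells and between 1 and 5 in 4, Dnmt3b in 17 and 2, and Dnmt3l in 18 and 4. Another 15, 15 and 13 cells held a value above 0 but under 1 FPKM, and counting any value above 0 gave 77.8% of cells for Dnmt3a, 75.6% for Dnmt3b and 77.8% for Dnmt3l. A cell held 3 members at 1 FPKM or more in 9 cases, 4 in 15, 5 in 17, 6 in 3 and 7 in 1. Of the trio Dnmt3a, Dnmt3b and Dnmt3l, 9 cells had none, 14 had 1, 19 had 2 and 3 had all 3. Uhrf1 was above Dnmt1 in 43 of 45 cells, and Tet2 above Tet1 in 34, whereas the bulk libraries had Tet1 above Tet2. The tables of bulk and single-cell values were normalised apart, so only the order within each is compared.

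The sort was checked on markers. Dppa5a and Zfp42 were at 1 FPKM in all 45 cells, Sox2 in 35, Esrrb in 27, Nanog in 12 and Pou5f1 in 11, although Pou5f1 stood at 1370 FPKM in the pool. Fut4, at 0.391 FPKM in the pool, was at 0 in all 45. Markers of other cell types were rare. Gata4, Gata6, Sox17 and Dab2 of primitive endoderm were at 0 in all cells, and Lama1 reached 1 FPKM in 3. Of the fibroblast markers Col1a1, Col1a2, Postn and Acta2 were at 0 and Thy1 was in 1 cell. Of the primitive streak markers T and Fgf8 were at 0, Mixl1 was in 3 cells, up to 338.7 FPKM, and Eomes in 1. Of the epiblast markers Fgf5 was at 0, Otx2 was in 6 cells, up to 744.1 FPKM, and Pou3f1 in 3. Of the antigen-presenting or B cell markers Cd74 and Cd79b were at 0, and H2-Ab1 and Cd52 were in 1 cell each. Genes detected per cell ran from 1642 to 3295 with a median of 2337, and the first and second runs of cells in the table had medians of 2446 and 1973. Dnmt3a was at 1 FPKM in 13 cells of the first run and 7 of the second, and Dnmt1 in 3 and 6. The Spearman rho with the number of genes detected per cell was 0.43 for Dnmt3a and 0.05 for Dnmt1.

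**Figure D4:**
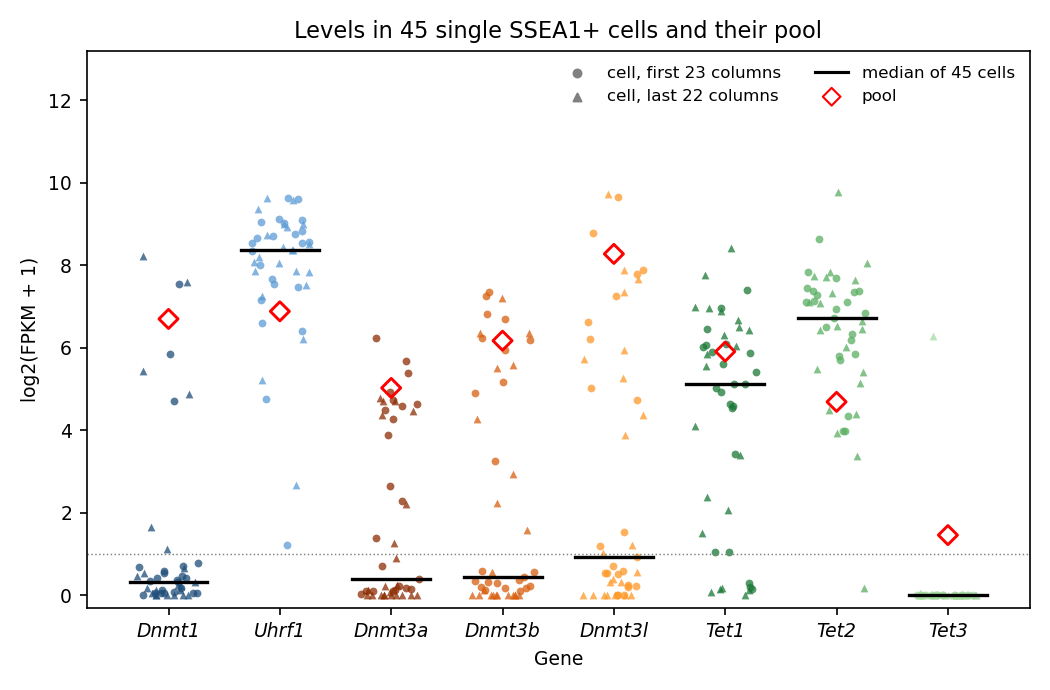
Level of each gene (log2(FPKM + 1)) in each of 45 single cells, circles for the first and triangles for the second run of cells, with the median cell as a bar, the pool as an open diamond and a dotted line at 1 FPKM. Uhrf1 and Tet2 lie above 1 FPKM in 45 and 44 cells, the de novo genes split between high cells and cells near 0, and Tet3 is at 0 in 43.

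Rank correlations between members over the cells were mostly weak. Of 28 pairs 25 had a Spearman rho under 0.3 in size, and the range was -0.41 to 0.38. The highest was Dnmt3b with its stimulator Dnmt3l (0.38, with 0.20 and 0.47 in the runs of cells), which were both detected in 12 cells, of 19 with Dnmt3b and 22 with Dnmt3l. The lowest was Dnmt3b with Tet2 (-0.41, with -0.42 and -0.48 in the runs). Split by cell number instead, that pair gave -0.22 in cells 1 to 32 and -0.58 in cells 49 to 87. With sparse values these are descriptions only. Among the rhos of the members with Tbx3 and with Dppa3, the largest in size was that of Tbx3 with Tet2. It was 0.43 (0.44 and 0.37 in the runs), reached or passed by 0.621% of 3061 scanned genes. Tet1 had a rho of 0.05 with Tbx3, reached or passed by 49.9%. Tbx3, detected in 13 cells, was at 0 in 24, and 1 cell held 58.5% of its summed level. The rho of Tbx3 with the number of genes detected was 0.29. Dnmt3b and Tbx3 had a rho of -0.29, with 1.63% of scanned genes at or below it. Dppa3, detected in 10 cells, had a rho of 0.38 with Dnmt3b (0.07 and 0.48), reached or passed by 2.65% of scanned genes. With Tet2 its rho was -0.26, with 1.47% of scanned genes at or below it. Small shares were thus not particular to Tbx3 with Tet2, a pair named because its rho was largest.

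The genes most like each member over the 45 cells were named by rho alone. For Dnmt3a they were Ndufa2 (0.66), Cse1l (0.60), Lifr and 9930021J03Rik (both 0.55) and Chmp2a (0.54). For Dnmt3b they were Rlim (0.58), Grcc10 (0.57), Ppm1a (0.50), Mea1 (0.49) and Tbl3 (0.48), and for Dnmt3l Gfm1 (0.60), Zfr (0.51), Vps35 (0.49), Skil and 6720456B07Rik (both 0.48). For Tet1 they were Cd9 (0.54), Pikfyve (0.52), Lmna and Nono (both 0.50) and Gtf2h5 (0.49), and for Tet2 Alpk3 (0.52), Sdha (0.51), Klhl9 and Mll2 (both 0.50). For Uhrf1 they were Pabpn1 (0.49), Usp28 (0.46), Ddx41 (0.45), Eef1d (0.44) and Igsf3 (0.43), and for Dnmt1 Zfp868 and Epb4.1l5 (both 0.53), Ube3a (0.49), Zfp869 (0.47) and Zfp780b (0.45). Of these 35 likenesses, with 1 gene not named, 21 had a rho of 0.3 or more in both runs of cells. Others rested on 1 run, such as Chmp2a with 0.02 and 0.76, Ppm1a with -0.02 and 0.67, Cd9 with 0.14 and 0.75, and Eef1d with 0.65 and 0.12. The runs make up the same 45 cells by which these genes were picked, so their values are no independent check. The level of 9930021J03Rik also had a rho of 0.63 with the number of genes detected. The cells share a culture, a chip protocol and a range of depth.

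The pool read 309 FPKM for Dnmt3l, 117 for Uhrf1, 103 for Dnmt1, 71.2 for Dnmt3b, 59.1 for Tet1, 31.7 for Dnmt3a, 24.8 for Tet2 and 1.76 for Tet3. The mean of the 45 cells was 131 FPKM for Tet2, 5.12-fold above the pool on the FPKM + 1 scale, and 346 for Uhrf1, 2.94-fold above it. Among 8337 genes 97.7% had a ratio of cells to pool at or below that of Tet2 and 94.4% one at or below that of Uhrf1, and the median log2 ratio was -1.20. Dnmt1 went the other way, at 18.7 FPKM in the mean cell, 5.29-fold below the pool, with 29.8% of genes at or below it.

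The ratio of cells to pool moved with base composition over all genes. Its median was -0.03 in the fifth of genes with the lowest GC content and -2.71 in the fifth with the highest, with a rho of -0.45 across genes, which are not independent replicates. Tet1 (43.7% GC, log2 ratio -0.10) and Tet2 (45.4%, 2.36) are among the genes of low GC, and Dnmt1 (53.6%, -2.40), Dnmt3l (53.3%, -1.89), Dnmt3b (53.1%, -1.33) and Dnmt3a (51.9%, -1.54) are richer. Uhrf1 had 53.7% GC and a ratio of 1.55. The part of base composition in the order of these genes in the cells was not tested.

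**Figure D5:**
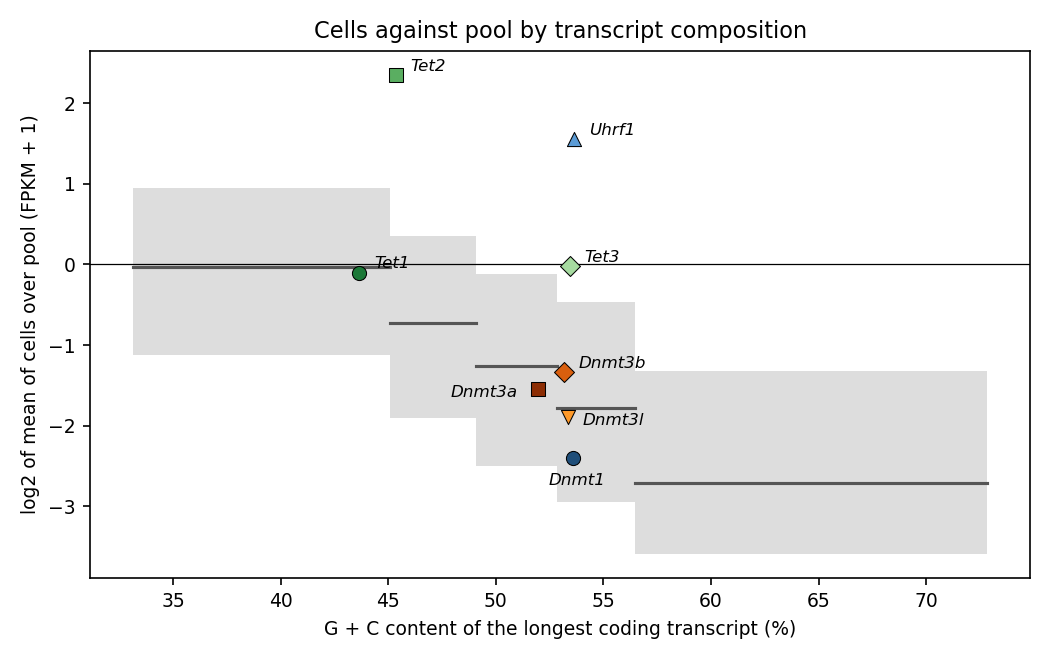
Mean of the 45 cells over the pool (log2, vertical axis) against GC content of the transcript (percent, horizontal axis) for the 8 genes, over the median (bar) and middle 50% (shading) of all 8337 genes in 5 equal bins of GC content. Tet2 at 2.36 and Uhrf1 at 1.55 lie above the shading of their bins, and Dnmt1 at -2.40 lies inside it.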

How the data were processed

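Per the submitters' processing notes, the authors aligned bulk reads to mm9 with TopHat and made FPKM with Cufflinks and Cuffdiff. For cells and pool the notes name TopHat with Cuffnorm, and those FPKM were normalised apart from the bulk table. Each Tbx3 site carries a score that the authors deposited; the notes name Bowtie 1.0 and HOMER, site names are in MACS style, and no source used here says which tool gave the score. Read depth and other tool versions are not stated in them either. In the cells a relative depth read from the lowest values ran from 0.147 to 1.66.

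Differences are log2((a + 1)/(b + 1)) of FPKM, over genes reaching 1 FPKM in at least one of the pair, and 2-fold was the threshold counted. Genes were counted in cells at 1 FPKM. Sites were placed by their nearest edge to gene starts of the annotation of the same build, and sequences read from that genome. RefSeq promoter sequences, given on another build, were matched by letter to place starts. No test was run, since each population has 1 library and the cells come from 1 sort. The genes named were all 8 members, Tbx3 and Dppa3, up to 4 genes of each list per comparison with the largest difference (some are left unnamed), list genes with a site within 20 kb, the cell type markers, and the 5 genes most like each member over cells among those at 1 FPKM in at least 25% of cells. One gene that this last rule gives is not reported here. Members and lists were chosen with earlier results of these data known. Alternatives changed the pseudocount, filter, scaling, fold, cell threshold, runs of cells, window and score. Calculations used Python 3.11.15, numpy 2.4.6, pandas 2.3.3 and scipy 1.17.1 and were tested on simulated data.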

Additional observations from a re-analysis of the deposited data

Results flagged for a closer look

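Opposite signs were seen for 3 of the 7 genes that passed the filter in both the allele and the hairpin comparison, which share no library. Over all genes 28.1% of 11182 were higher in both and 17.3% lower in both, so opposite signs were common. Dnmt1 stood at -0.085 in N/N against +/+ and at 0.47 in shTbx3 against shLuc, on the log2(FPKM + 1) scale. Uhrf1 stood at -0.17 and 0.40. Dnmt3l stood at -0.078 and 0.074. Once the median gene was set to 0, the hairpin values were 0.31 for Dnmt1, 0.25 for Uhrf1 and -0.08 for Dnmt3l. With 1 library a population, none of these differences between the sets was tested.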

How the results depend on the processing

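The count of family members past 2-fold was 0 in all 4 comparisons under each of these settings (pseudocounts of 0.1 and 5, no filter or 5 FPKM, both rescalings and 1.5-fold). With the median set to 0 and a 1.5-fold threshold together, a pairing chosen after seeing the data, it was 3 for shTbx3 against shLuc. These were Dnmt3a, Tet1 and Tet2, which on rescaling without small RNA genes stood at -0.71, -0.67 and -0.73, also past 1.5-fold. At a pseudocount of 0.1, Tet3 in N/N against +/+ stood at -0.65, past 1.5-fold. Thus the count of 0 at 1.5-fold holds for the main scale only. Over all genes the count past 2-fold in N/N against +/+ was 377, and it was 620 and 165 at pseudocounts of 0.1 and 5; in shTbx3 against shLuc it was 431, 751 and 137. The number of members with a site within 20 kb was 4, where 9.59% of coding genes had one. It was also 4 within 50 kb (18.4% of coding genes) and, within 20 kb, at scores of 100 or more (3.09%). Within 5 kb it was 2 (4.37%). Counting within 20 kb of any coding transcript start, added after seeing the data, gave 5 (10.4%). Of the members' differences 175 recomputed values kept their sign and side, and 8 did not. These were Dnmt3l in +/N against +/+ (0.03), N/N against +/N (-0.08 and -0.12) and shTbx3 against shLuc (-0.08 and -0.14), Uhrf1 in N/N against +/N (-0.03 and -0.07), all on rescaling. Counting any value above 0 raised the share of cells with Dnmt1 from 20% to 84.4% and that with Tet1 from 82.2% to 100%. The likeness of Dnmt3b and Dnmt3l moved to 0.20 in the first run of cells, and that of Dnmt3b and Tet2 to -0.22 in cells 1 to 32. Runs of cells and base composition were looked at after seeing the data. No paired analysis was possible because each population has 1 library.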

Other observations

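Lists beside the family were also counted in the single cells, among genes at 5 FPKM or more in the pool. Of 25 such cofactors and readers of methylation 11 reached 1 FPKM in no fewer than 25% of cells, and of 15 demethylation and repair genes 4 were. The methyl donor list had 7 of 12 and the 2-oxoglutarate list 11 of 14. The germline list had 2 of 7 and the cell cycle list 12 of 13. Over all 8564 genes at that level in the pool the share was 34.3%. Within the cofactor list, and named for these values, Zfp57, which holds methylation at imprinted loci, and Hells, a chromatin remodeller needed for methylation of repeats, were each in 42 of 45 cells, Trim28, the co-repressor that Zfp57 recruits, in 41, and Pcna in 40. Uhrf2, the relative of Uhrf1, was in 9.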
